A study of Rattus norvegicus with 18 samples.

Results

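The thin filament and the Z disc are the actin-based parts of the sarcomere, the contractile unit of heart muscle. Thin filaments are actin polymers wrapped by tropomyosin and the calcium-sensing troponin complex, and myosin heads pull on them. The Z disc cross-links the ends of these filaments through alpha-actinin and holds them to titin, desmin and signalling proteins, while the M band ties the thick filaments at the centre. The levels of 29 such genes were read in neonatal rat ventricular cardiomyocytes after a short block of myosin II with blebbistatin, a small molecule that inhibits the ATPase of myosin motors. The set was chosen by name: 32 listed genes for the thin filament, titin, the M band, the Z disc and sarcomere turnover, with myosin chains left out, of which 29 had a row among the 28909 genes of the table (there in capitals, as TNNT2, ACTC1 and LDB3; rat symbols are used here). Titin (Ttn), its cap Tcap and leiomodin 2 (Lmod2) had no row, so their levels are not analysed here. All 29 were tested, among 15204 genes that passed the filter on low values.

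The tested cells were wild-type Sprague-Dawley cardiomyocytes treated for 0.5 h with blebbistatin, at 25 µM by the sample labels (the series' design text also gives 0.25), in 3 libraries. Their controls were the same kind of cells given the solvent DMSO for 0.5 h, also in 3 libraries. Cells came from ventricles of 1-day-old rats, faster-attaching cells were removed by 90 min of plating, and low-serum medium replaced serum after 24 h on collagen. These are primary cultures, and nothing in the labels ties a group's 3 libraries to separate rats or isolations. The p-values therefore describe library-to-library spread alone, which may be technical. The labels name no batch. The series' 6 H3K9me3 and 6 input samples are not analysed here.

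Values are CPM, the reads of a gene per 1000000 assigned reads, and the step between low values gives depths of 59.6 to 63.3 M reads. At that depth 3 reads, the limit that a count of 0 allows, are worth 0.0474 to 0.0503 CPM, for counting error only. Cardiomyocyte transcripts other than the 29 were present (all 15 listed markers were tested, Atp2a2 at 1791 to 2106 CPM with blebbistatin and 1794 to 2282 CPM with DMSO), and so were those of other cells, with the fibroblast gene Col1a1 at 18795 to 24185 CPM with blebbistatin and 18909.9 to 24452 CPM with DMSO. In such bulk RNA, fewer cells of a type and less RNA per cell cannot be told apart. The skeletal muscle regulators Myod1, Myf5 and Pax7 were listed at 0 in all 6 libraries, but Myog and Myf6 were not. Myog had 0.146 CPM in blebbistatin replicate 1 and 0.0671 CPM in DMSO replicate 2. Myf6 had 0.134 CPM in DMSO replicate 2. Of the 6 libraries, DMSO replicate 1 was at one end for most genes tested, the lowest for 34.4% and the highest for 33.7% of them. The 15 cardiomyocyte markers summed to 8859 to 11085 CPM with blebbistatin and 6388 to 11163 CPM with DMSO. Their mean log2 level in DMSO replicate 1 differed by -0.29 from that of the other 5 libraries. These markers were split: on the scaled values DMSO replicate 1 was lowest for 8 and highest for 5. Nppa had 495 CPM there, against 2785 to 5326 CPM with blebbistatin and 2859 and 5168 CPM in the other controls. Ryr2 had 1201 CPM there, against 556 to 728 CPM with blebbistatin and 758 and 597 CPM in the other controls. The 12 macrophage and leukocyte markers, all tested, summed to 183 to 209 CPM with blebbistatin and 97.3 to 205 CPM with DMSO, with a difference of -0.99 in the same library. On the scaled values DMSO replicate 1 was lowest for 9 of them and highest for 1. Lyz2 had 14.5 CPM there, against 57.2 to 74.8 CPM with blebbistatin and 54.4 and 78.3 CPM in the other controls. Csf1r had 25.0 CPM there, against 23.3 to 26.6 CPM with blebbistatin and 24.9 and 23.7 CPM in the other controls. Of 8 red blood cell genes, the 4 tested differed by 1.27 in DMSO replicate 1 and summed to 26.4 to 31.2 CPM with blebbistatin and 28.9 to 72.5 CPM with DMSO. Hbb had 70.7 CPM there, against 25.9 to 30.3 CPM with blebbistatin and 28.5 and 28.1 CPM in the other controls. Alas2 (0.0790 to 0.469 CPM with blebbistatin, 0.184 to 1.02 CPM with DMSO), Ahsp (0.0316 to 0.211 and 0.134 to 0.463 CPM) and Slc4a1 (0.130 to 0.323 and 0.130 to 0.335 CPM) were low. Slc4a1 was not highest in DMSO replicate 1. Of 12 skeletal muscle markers, the 4 tested (Myh4, Ckm, Mybpc2 and Actn3) differed there by 0.87. Ckm is also 1 of the 15 cardiomyocyte markers. Actn3 was near the floor, at 0.0649 to 0.237 CPM with blebbistatin and 0 to 0.413 CPM with DMSO. The 14 fibroblast, 10 smooth muscle and 9 endothelial markers tested differed by -0.050, 0.035 and -0.13 in DMSO replicate 1. These means cover markers that went opposite ways. On the scaled values that library was highest for 4 and lowest for 4 of the fibroblast markers. It was highest for 5 and lowest for 4 of the smooth muscle markers, and highest for 2 and lowest for 4 of the endothelial markers. The part of these marker differences in the values below was not tested.

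None of the 29 genes was called changed after blebbistatin at an adjusted p under 0.05 (limma, Benjamini-Hochberg over all 15204 genes, adjusted p from 0.991 to 0.996). The same test called 0.0197% of all genes tested. None of the 29 had an unadjusted p under 0.05, against 1.52% of all genes tested. For none did the 3 blebbistatin values all lie above or all below the 3 DMSO values, against 6.13% of all genes tested. Of the 29 log2 fold changes, 15 were positive and 14 negative, with a median of 0.0053, beside 50.7% positive and a median of 0.0040 over all genes tested. The values ran from -0.33 for Flnc to 0.39 for Ldb3. Their SEs ran from 0.12 for Tmod1 to 0.68 for Neb, so a gene that was not called is not shown to be unchanged. Together the 29 genes took 2.46%, 2.37% and 2.43% of all assigned reads with blebbistatin, against 2.1%, 2.33% and 2.45% with DMSO. DMSO replicate 1 lay below the rest, and the other 5 libraries lay close together.

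**Figure D1:**
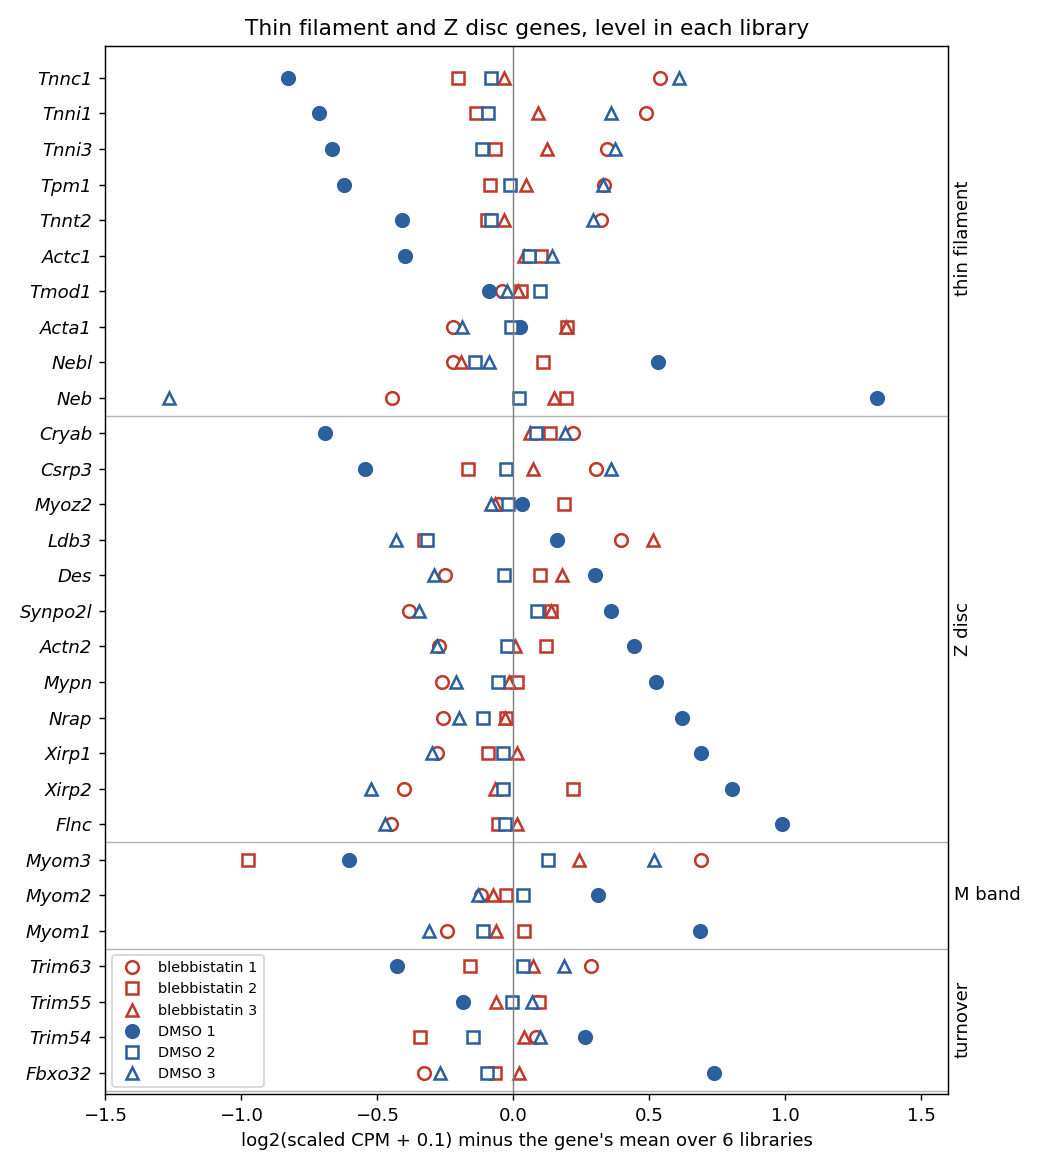
Level of each of the 29 genes in each library, as log2(scaled CPM + 0.1) minus the gene's mean over 6 libraries, by role in the sarcomere. Red symbols are blebbistatin, blue symbols DMSO, and the filled circle is DMSO replicate 1, which sits at the low end for Tnnc1, Tnni1 and Cryab and at the high end for Flnc, Xirp2 and Neb, while red and blue symbols overlap in every row.

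The thin filament holds the actin, tropomyosin and troponin genes, whose transcription in muscle is known to depend in part on serum response factor (SRF), which binds the CArG box. Promoter sequences of 300 bases (250 before and 50 after the annotated start, RefSeq, GRCr8) were at hand for 24 of the 32 listed genes, in 27 promoters. A CArG box on either strand was found in 4 of the 27, those of Actc1, Acta1, Ldb3 and Nebl, and in 1.64% of all 33469 promoters. These 4 are shown because they hold actin genes of the thin filament and Ldb3, the gene with the lowest p of the set, with the CArG box in capitals. They lie at chr3:121271778-121272077 (minus strand), chr19:68784145-68784444 (minus strand), chr16:9924630-9924929 (minus strand) and chr17:85135247-85135546 (minus strand), and are printed 5′ to 3′ in the direction of the gene.
Actc1: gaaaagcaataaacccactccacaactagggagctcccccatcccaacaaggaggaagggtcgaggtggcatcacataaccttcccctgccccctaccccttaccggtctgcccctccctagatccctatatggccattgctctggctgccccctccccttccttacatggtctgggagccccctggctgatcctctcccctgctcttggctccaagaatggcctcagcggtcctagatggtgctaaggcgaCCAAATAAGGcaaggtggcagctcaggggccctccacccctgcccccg
Acta1: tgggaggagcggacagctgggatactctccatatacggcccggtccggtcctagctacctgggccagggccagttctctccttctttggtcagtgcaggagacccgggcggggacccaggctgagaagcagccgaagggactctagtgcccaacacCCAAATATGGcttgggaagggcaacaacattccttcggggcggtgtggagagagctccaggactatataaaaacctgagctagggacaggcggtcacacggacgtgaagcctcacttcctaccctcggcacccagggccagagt
Ldb3: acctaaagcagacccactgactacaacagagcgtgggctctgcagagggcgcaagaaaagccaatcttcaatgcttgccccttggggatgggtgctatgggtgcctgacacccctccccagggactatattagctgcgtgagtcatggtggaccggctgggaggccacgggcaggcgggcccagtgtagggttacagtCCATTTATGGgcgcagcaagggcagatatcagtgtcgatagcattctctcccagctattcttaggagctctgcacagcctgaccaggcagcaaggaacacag
Nebl: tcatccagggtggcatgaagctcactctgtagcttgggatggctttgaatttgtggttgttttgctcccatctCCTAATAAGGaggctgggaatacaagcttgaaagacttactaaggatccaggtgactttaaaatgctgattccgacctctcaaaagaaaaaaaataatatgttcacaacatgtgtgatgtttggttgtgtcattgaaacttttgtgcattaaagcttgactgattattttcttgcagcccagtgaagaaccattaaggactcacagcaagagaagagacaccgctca
The match begins 94 bases before the annotated start of Acta1, 52 before that of Ldb3 and 177 before that of Nebl, and in Actc1 it lies just after it. The core MCAT element (CATTCC on either strand), the binding site of TEAD factors, was in 8 of the 27 promoters, from 8 listed genes (Acta1, Flnc, Mypn, Tnnt2, Tpm1, Trim54, Trim63 and Ttn), and in 14.2% of all promoters. In the Acta1 sequence the element reads as cattcc downstream of the CArG box. A match describes letters only, and the data hold no binding measurement.

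Of the thin filament genes listed, 10 of 11 were tested, 8 with a positive and 2 with a negative log2 fold change (median 0.13), and 0 passed. Actc1, which encodes cardiac alpha-actin, the main actin of the heart's thin filament, had 7891, 7902 and 7699 CPM with blebbistatin, against 5200.1, 7781 and 8338 CPM with DMSO. Only DMSO replicate 1 was low, and the other 5 libraries lay between 7699 and 8338 CPM. Its log2 fold change was 0.13 ± 0.17 (SE, as for all fold changes here, from 3 libraries a group), and -0.036 without DMSO replicate 1. Acta1, the skeletal alpha-actin gene that neonatal hearts also express, had 657, 851 and 863 CPM with blebbistatin, against 703, 749 and 667 CPM with DMSO. Blebbistatin replicate 1 and DMSO replicate 3 were the 2 lowest and the groups overlapped (log2 fold change 0.11 ± 0.16). Without blebbistatin replicate 1 both treated libraries lay above all 3 controls, as 12.5% of all genes then separated, at a log2 fold change of 0.25 with adjusted p = 1.00 in limma. Actc1 and Acta1 encode nearly identical proteins, and how reads shared between them were counted is not given, so their split is uncertain.

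Tropomyosin and the troponin genes shared an order across the libraries. Tpm1, which encodes the alpha-tropomyosin that shields actin from myosin at rest, had 2938, 2128 and 2374 CPM with blebbistatin, against 1366, 2276 and 2913 CPM with DMSO (log2 fold change 0.20 ± 0.25). Tnnt2, the tropomyosin-binding subunit of cardiac troponin, had 1798, 1304 and 1384 CPM with blebbistatin, against 977, 1335 and 1752 CPM with DMSO (0.13 ± 0.21). In both genes DMSO replicate 1 was the lowest library, and blebbistatin replicate 1 and DMSO replicate 3 were the highest pair, one library of each group. Tnnc1, the calcium-binding subunit, ranged from 548 to 946 CPM with blebbistatin and 331 to 985 CPM with DMSO, with its lowest value again in DMSO replicate 1 and a log2 fold change of 0.20 ± 0.36. Its highest value was 2.98 times its lowest, a wider span than the 1.84 times of Tnnt2. Without DMSO replicate 1 the log2 fold changes of Tpm1, Tnnt2 and Tnnc1 were -0.062, -0.042 and -0.16, all of the opposite sign.

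The inhibitory troponin I subunit comes from Tnni1, the slow skeletal form of the fetal heart, and Tnni3, the cardiac form that replaces it after birth. Tnni1 had 520.0, 327 and 389.6 CPM with blebbistatin, against 204, 342 and 472 CPM with DMSO. Tnni3 had 265, 193 and 223 CPM with blebbistatin, against 118, 189 and 268 CPM with DMSO. Both were lowest in DMSO replicate 1 and highest in blebbistatin replicate 1 and DMSO replicate 3, and the groups overlapped. Their log2 fold changes were 0.30 ± 0.29 and 0.27 ± 0.26, and 0.015 and 0.0033 without DMSO replicate 1. Without DMSO replicate 3, both of the remaining controls lay below all treated libraries for Tnni3, at a log2 fold change of 0.52 (unadjusted p = 0.0373, 0.593 after adjustment in limma). In that comparison 22.5% of all genes had groups that did not overlap.

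**Figure D2:**
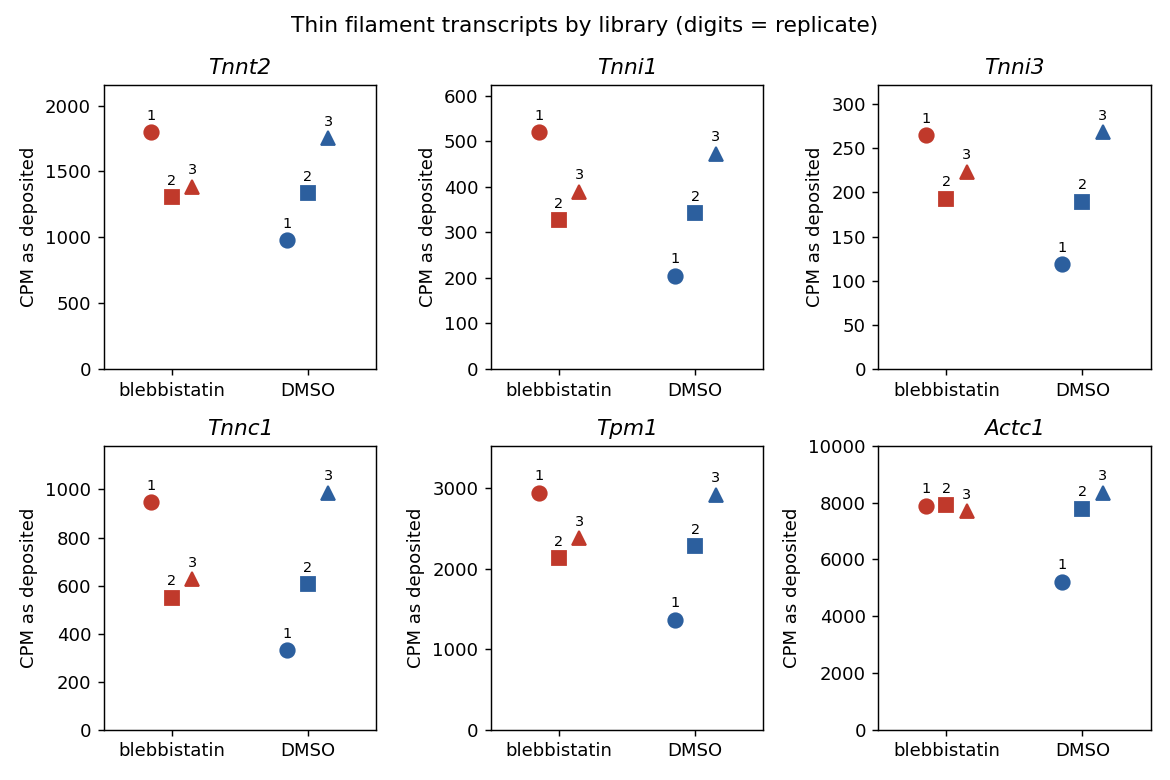
CPM as deposited for 6 thin filament genes, blebbistatin on the left and DMSO on the right, each point 1 library with its replicate number. In each panel DMSO replicate 1 is the lowest point (331 CPM for Tnnc1, 204 CPM for Tnni1), and the groups overlap.

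The remaining thin filament genes cap, brace or span the filament. Tmod1, tropomodulin 1, which caps the slow-growing end of actin filaments, was the steadiest of them, at 127 to 129.8 CPM with blebbistatin and 110.4 to 137 CPM with DMSO (log2 fold change 0.0053 ± 0.12). It overlaps Tstd2 in RefSeq, itself at 27.4 to 34.0 CPM, so part of its reads is uncertain. Nebl, nebulette, the cardiac relative of nebulin that anchors thin filaments at the Z disc, had 75.8, 92.4 and 76.3 CPM with blebbistatin, against 115, 78.8 and 82.6 CPM with DMSO. Here DMSO replicate 1 was the highest library and the other controls lay among the treated values (-0.20 ± 0.21). Without blebbistatin replicate 2 the groups of Nebl did not overlap, as for 14.7% of all genes, at a log2 fold change of -0.31 (adjusted p = 0.946, limma). Neb itself, the giant nebulin of skeletal muscle, ranged from 0.194 to 0.348 CPM with blebbistatin and 0.0648 to 0.827 CPM with DMSO, and its lowest value, in DMSO replicate 3, is close to the 0.0486 CPM that 3 reads are worth there. Its log2 fold change of -0.064 ± 0.68 has an SE far wider than the value.

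Some Z disc genes have promoters that hold a match to the MEF2 site, bound by MEF2 factors of muscle. Such a match, on either strand, was in 7 of the 27 promoters, from 6 listed genes (Myom3, Myoz2, Synpo2l, Ttn, Xirp1 and Xirp2), and in 3.29% of all promoters. Of the others, Xirp1 was highest in DMSO replicate 1 on the scaled values, Myoz2 and Myom3 were not, and Ttn had no row. A link between the site and these levels was not tested. Xirp2 and Synpo2l are shown, with the MEF2 site in capitals. Both are from the Z disc and attachment genes, and both were highest in DMSO replicate 1. Their promoters lie at chr3:72533936-72534235 (plus strand) and chr15:3684760-3685059 (plus strand).
Xirp2: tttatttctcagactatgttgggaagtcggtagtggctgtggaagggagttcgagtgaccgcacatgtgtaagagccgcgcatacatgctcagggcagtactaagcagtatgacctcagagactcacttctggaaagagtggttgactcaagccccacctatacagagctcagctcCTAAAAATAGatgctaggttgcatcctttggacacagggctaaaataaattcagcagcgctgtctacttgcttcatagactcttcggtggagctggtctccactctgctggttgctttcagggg
Synpo2l: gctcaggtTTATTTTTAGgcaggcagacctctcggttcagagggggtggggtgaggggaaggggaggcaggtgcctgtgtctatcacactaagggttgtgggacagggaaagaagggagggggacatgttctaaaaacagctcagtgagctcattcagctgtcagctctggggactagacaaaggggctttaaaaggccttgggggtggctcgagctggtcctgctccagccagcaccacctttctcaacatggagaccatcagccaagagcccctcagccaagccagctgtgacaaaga
The site begins 74 bases before the annotated start of Xirp2 and 242 before that of Synpo2l.

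All 12 Z disc and attachment genes were tested, 5 with a positive and 7 with a negative log2 fold change (median -0.082), and 0 passed. Ldb3 (ZASP or cypher), a PDZ and LIM domain protein that binds alpha-actinin, had 628, 368 and 670.2 CPM with blebbistatin, against 479.9, 376 and 351 CPM with DMSO. Blebbistatin replicates 1 and 3 were the 2 highest libraries, while blebbistatin replicate 2 lay among the controls. Its mean was 546 ± 156 scaled CPM with blebbistatin and 411 ± 93.3 with DMSO (SD, n = 3 each), and its log2 fold change 0.39 ± 0.26 was the largest of the set, with adjusted p = 0.991 in limma. Without DMSO replicate 1 the log2 fold change was 0.57 (unadjusted p = 0.0526, 1.00 after adjustment in limma). Without blebbistatin replicate 2 the groups did not overlap, as for 14.7% of all genes, at a log2 fold change of 0.65 (unadjusted p = 0.0246, 0.946 after adjustment in limma). It was 0.23 without blebbistatin replicate 3, 0.29 without blebbistatin replicate 1, 0.33 without DMSO replicate 2 and 0.27 without DMSO replicate 3. Over all alternatives its adjusted p ran from 0.689 to 1.00.

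Actn2, alpha-actinin 2, the cross-linker of the Z disc, had 1605, 2036 and 1917 CPM with blebbistatin, against 2374, 1875 and 1581 CPM with DMSO. The lowest 2 libraries, blebbistatin replicate 1 and DMSO replicate 3, came from different groups, and the log2 fold change was -0.095 ± 0.21. Flnc, filamin C, a large actin cross-linker of the Z disc, had 966, 1228 and 1309.5 CPM with blebbistatin, against 2358, 1268 and 944 CPM with DMSO. DMSO replicate 1 lay far above the other 5 libraries, and without it the log2 fold change of -0.33 ± 0.35 became 0.087. Des, desmin, the intermediate filament that links neighbouring Z discs, had 1464, 1805 and 1945 CPM with blebbistatin, against 1935, 1673 and 1413 CPM with DMSO (0.017 ± 0.20), with wide overlap. Smooth muscle cells also express Des, and the 10 smooth muscle markers, Des among them, summed to 6955 to 7521 CPM with blebbistatin and 5861 to 7337 CPM with DMSO. On the scaled values DMSO replicate 1 was the highest library for 5 of these markers, Myh11 included, and the lowest for 4, Cnn1, Tagln and Acta2 included.

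**Figure D3:**
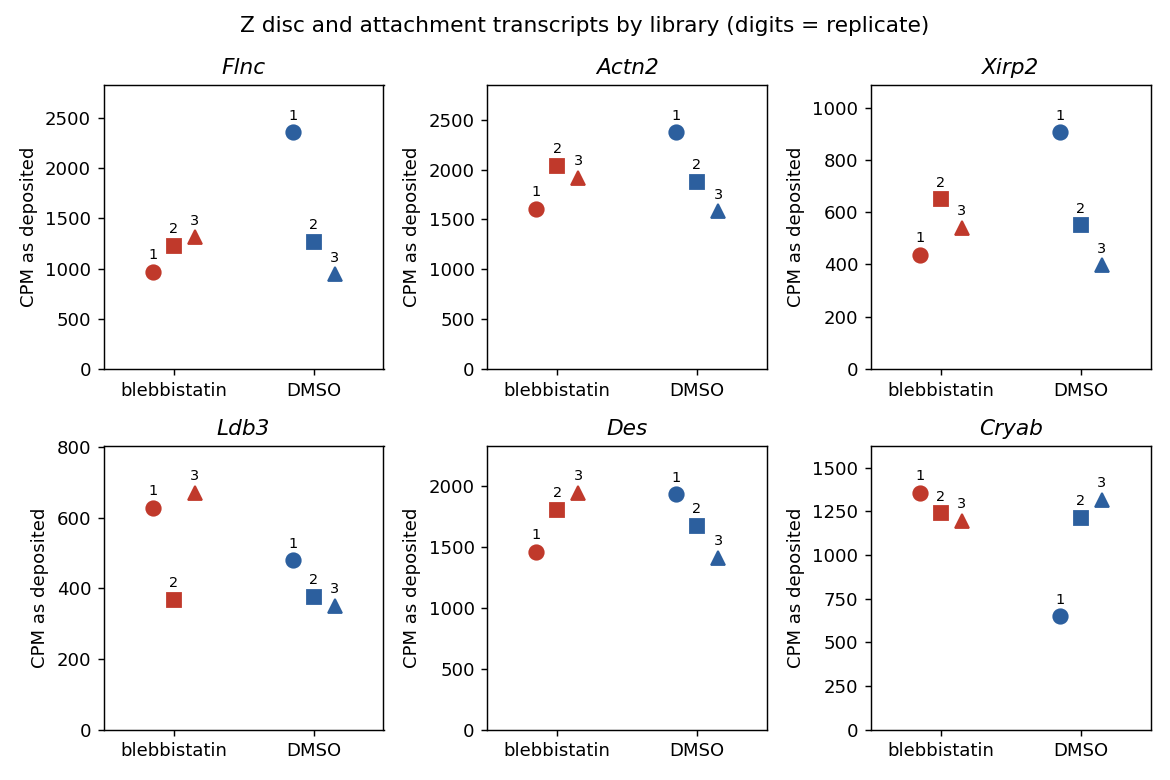
CPM as deposited for 6 Z disc and attachment genes, blebbistatin on the left and DMSO on the right, each point 1 library with its replicate number. Flnc and Xirp2 are highest in DMSO replicate 1 (2358 and 906 CPM), Cryab is lowest there (649 CPM), and for Ldb3 blebbistatin replicates 1 and 3 (628 and 670.2 CPM) stand above the other 4 libraries.

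Xirp1 and Xirp2 encode the Xin repeat proteins of the intercalated disc, and Nrap a nebulin-related anchor of forming myofibrils. Xirp1 had 289, 319 and 349 CPM with blebbistatin, against 510.1, 336 and 283 CPM with DMSO (-0.24 ± 0.25). Xirp2 ranged from 436 to 649 CPM with blebbistatin and 397 to 906 CPM with DMSO (-0.16 ± 0.33). Nrap had 260.2, 296 and 300.5 CPM with blebbistatin, against 431, 283 and 269 CPM with DMSO (-0.21 ± 0.23), and Habp2, which overlaps it in RefSeq, was listed at 0 in all 6 libraries. In these 3 genes DMSO replicate 1 was the highest library, the other 2 controls lay within or close to the treated range, and without it the log2 fold changes were 0.050, 0.20 and 0.051. Mypn, myopalladin, a Z disc scaffold, and Synpo2l, an actin-binding Z disc protein, showed the same order, with log2 fold changes of -0.18 ± 0.21 and -0.069 ± 0.23.

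Cryab, alphaB-crystallin, the small heat shock protein that guards desmin and titin, had 1354, 1238 and 1195 CPM with blebbistatin, against 649, 1213 and 1317 CPM with DMSO. DMSO replicate 1 lay far below the other 5 libraries, which were within 1195 to 1354 CPM, and the log2 fold change was 0.28 ± 0.24, or 0.0019 without it. Hspb2, which overlaps Cryab in RefSeq, had 83.3, 63.4 and 87.1 CPM with blebbistatin, against 35.3, 70.2 and 89.2 CPM with DMSO, also lowest in DMSO replicate 1. Csrp3, the muscle LIM protein, whose loss enlarges the heart in mice, ranged from 601 to 859.5 CPM with blebbistatin and 429.5 to 886 CPM with DMSO (0.14 ± 0.24). Myoz2, calsarcin 1, which tethers calcineurin to the Z disc, ranged from 267 to 313 CPM with blebbistatin and 262 to 276 CPM with DMSO (0.043 ± 0.13), with the lowest of the 6 deposited values in DMSO replicate 1.

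The M band genes Myom1 to Myom3 encode myomesins, which bridge the thick filaments. Myom1 had 355, 417 and 395 CPM with blebbistatin, against 608, 382 and 336 CPM with DMSO (-0.18 ± 0.26). Myom2 had 108, 112 and 110.0 CPM with blebbistatin, against 132, 119 and 107 CPM with DMSO (-0.15 ± 0.14). Both were highest in DMSO replicate 1 with overlap elsewhere, and the treated values of Myom2 lay within 108 and 112 CPM. Without DMSO replicate 3 the groups of Myom2 did not overlap, as for 22.5% of all genes, at a log2 fold change of -0.25 (adjusted p = 0.596, limma). Myom3 was low, at 0.553 to 2.04 CPM with blebbistatin and 0.694 to 1.78 CPM with DMSO, with an SE of 0.50 around a log2 fold change of -0.029, whose sign turned with library-size scaling.

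The turnover genes encode E3 ubiquitin ligase components that act on sarcomere proteins in muscle atrophy. Trim63 (MuRF1) had 42.7, 30.3 and 36.3 CPM with blebbistatin, against 23.4, 35.3 and 39.5 CPM with DMSO (0.13 ± 0.20). Fbxo32 (atrogin-1) had 27.0, 31.4 and 33.9 CPM with blebbistatin, against 51.1, 31.2 and 27.9 CPM with DMSO (-0.25 ± 0.26). These 2 atrophy ligases went opposite ways in DMSO replicate 1, where Trim63 was lowest and Fbxo32 highest of the 6 libraries. Trim54 (MuRF3), which also stabilises microtubules, had 87.0, 62.6 and 83.1 CPM with blebbistatin, against 88.8, 72.8 and 87.3 CPM with DMSO (-0.14 ± 0.17). Trim55 (MuRF2), a binder of titin at the M band, had 297, 289 and 264 CPM with blebbistatin, against 222, 274 and 291 CPM with DMSO (0.081 ± 0.13). The groups of all 4 genes overlapped. Without DMSO replicate 2 the groups of Trim54 did not overlap, nor did the scaled values of Trim55 without blebbistatin replicate 3, at log2 fold changes of -0.26 and 0.13 (adjusted p = 0.991 and 0.999, limma), where 12.1% and 12% of all genes separated. The deposited CPM of Trim55 did overlap there.

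Ratios of related genes within a library barely depend on scaling, and 5 pairs were compared. They are ratios of reads, not of molecules, because transcripts differ in length. The log2 ratio of Tnni3 to Tnni1 was -0.97, -0.76 and -0.80 with blebbistatin, against -0.78, -0.85 and -0.82 with DMSO. Its SD over the 6 libraries was 0.076, while the log2 levels of Tnni3 and Tnni1 had SDs of 0.38 and 0.43, so the 2 isoforms varied in step. The log2 ratio of Actc1 to Acta1 was 3.59, 3.22 and 3.16 with blebbistatin, against 2.89, 3.38 and 3.64 with DMSO. Its SD of 0.28 exceeded those of the 2 actin levels (0.20 and 0.18). The blebbistatin minus DMSO differences in log2 ratio were -0.029 for Tnni3 to Tnni1, 0.017 for Actc1 to Acta1, -0.031 for Myom1 to Myom2, 0.28 for Trim63 to Trim54 and -0.14 for Nebl to Neb. Leaving out each library in turn, the difference for Trim63 to Trim54 was between 0.0045 (DMSO replicate 1 left out) and 0.44 (DMSO replicate 2 left out). That for Nebl to Neb was between -0.58 (DMSO replicate 1 left out) and 0.42 (DMSO replicate 3 left out). The other 3 pairs also turned sign, within -0.19 to 0.19. Exact two-sided permutation tests over the libraries gave p from 0.6 to 1, with an adjusted p of 1 for each of the 5 pairs, in a design whose smallest possible p is 0.1.

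**Figure D4:**
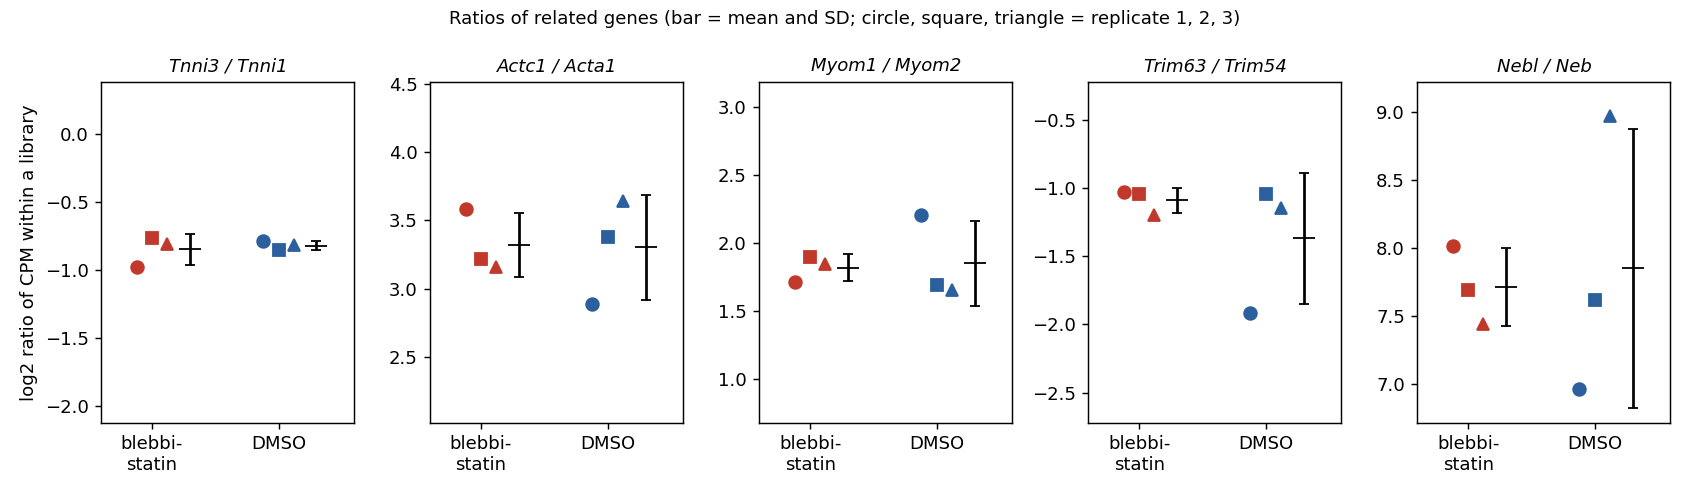
Log2 ratio of 2 related genes within each library, blebbistatin left and DMSO right in each panel, with symbols for replicates 1 to 3 and a bar for the mean and SD (n = 3). All panels span the same height: Tnni3 to Tnni1 stays within -0.97 to -0.76, while Nebl to Neb runs from 6.96 to 8.97.

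Across libraries 25 of the 29 genes had DMSO replicate 1 at one end, and Acta1, Ldb3, Myoz2 and Myom3 did not on the scaled values. On the scaled values, DMSO replicate 1 was the lowest of the 6 libraries for 11 genes (Tnnt2, Tnni1, Tnni3, Tnnc1, Actc1, Tpm1, Tmod1, Csrp3, Cryab, Trim63 and Trim55) and the highest for 14. Over all genes tested it was lowest for 34.4% and highest for 33.7%. DMSO replicate 1 was lowest with blebbistatin replicate 1 and DMSO replicate 3 as the 2 highest libraries for 8 of the 29 genes, against 14.6% of all genes tested. It was highest with the same 2 libraries as the lowest pair for 12 of the 29, against 15.7% of all genes tested. By role, DMSO replicate 1 was lowest for 7 of 10 thin filament genes and highest for 8 of 12 Z disc genes. Its difference from the mean of the other 5 exceeded 0.5 on the log2 scale for 18 of 29 genes, against 41.7% of all genes tested, and ran from -0.99 for Tnnc1 to 1.6 for Neb. The thin filament genes summed to 15217, 13474 and 13764 CPM with blebbistatin, against 9127, 13492 and 15606 CPM with DMSO. The Z disc genes summed to 8433, 9258 and 9624 CPM with blebbistatin, against 10785, 8917 and 8012 CPM with DMSO.

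Without DMSO replicate 1 most fold changes drew closer to 0 and 18 of 29 changed sign. The absolute log2 fold change was then under 0.2 for 26 of 29 genes, against 19 of 29 with all libraries. The exceptions were Neb (0.59), Ldb3 (0.57) and Myom3 (-0.34). Thin filament genes then had a median of -0.016 (5 positive, 5 negative) and Z disc genes one of 0.079 (11 positive, 1 negative). Over all genes tested the median was then -0.0002. The shares of all genes with a changed sign or a value under 0.2 were not computed, so these counts have no background beside them. None of the 29 passed, where limma called 0.02% of genes, and for none did the groups separate, where 12.1% of genes did.

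**Figure D5:**
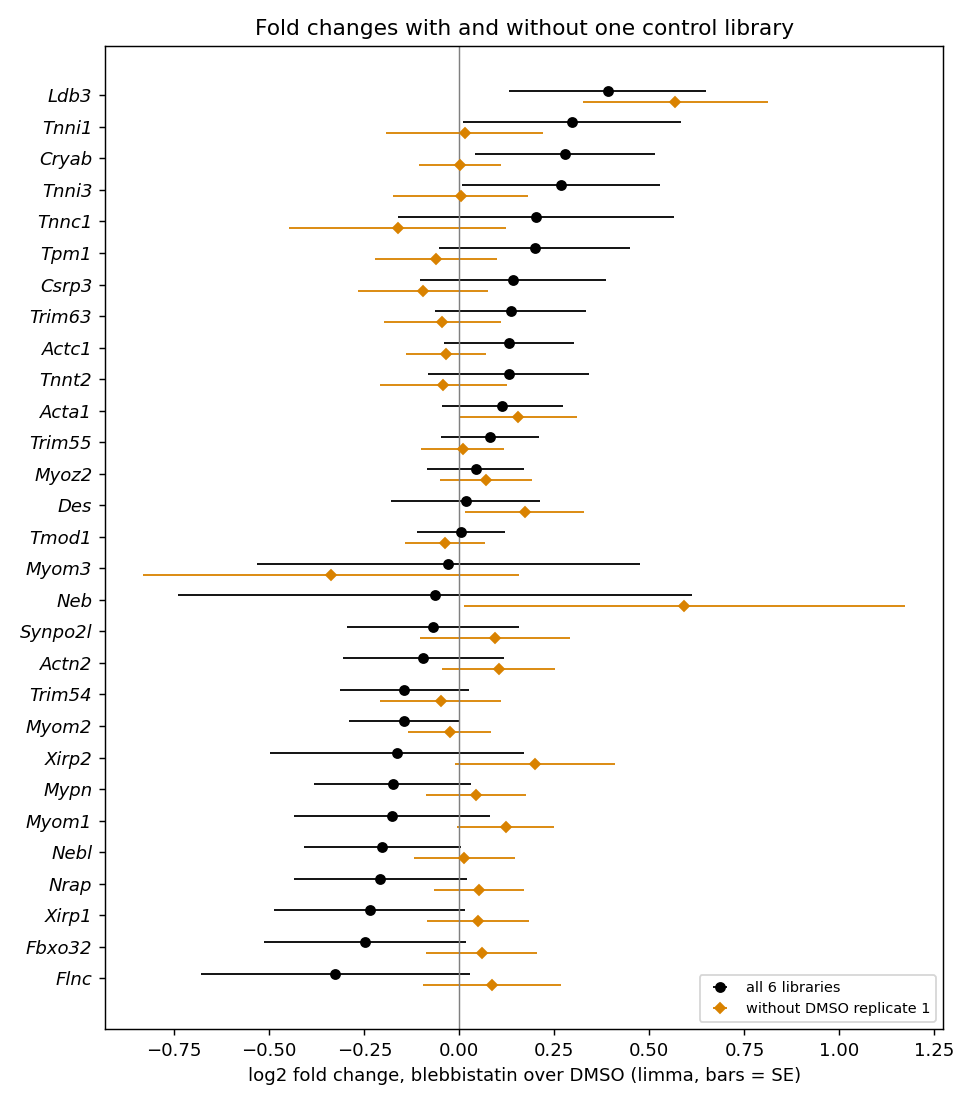
Log2 fold changes of the 29 genes, blebbistatin over DMSO, with SE from limma, for all 6 libraries (black circles) and without DMSO replicate 1 (orange diamonds). Circles run from -0.33 for Flnc to 0.39 for Ldb3, and most diamonds lie between -0.2 and 0.2.

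Among 62 other sarcomere genes listed for comparison (myosin chains, other tropomyosins and actins, chaperones and Z disc scaffolds), 61 had a row and 56 were tested. None passed in limma and 0 had an unadjusted p under 0.05. Their median log2 fold change was -0.013, with 26 positive and 30 negative. On the scaled values the groups did not overlap for 1 of the 56, Actg1, cytoplasmic gamma-actin, with a log2 fold change of -0.11 ± 0.11. On CPM as deposited its groups did overlap, at 689.6, 639 and 671 CPM with blebbistatin, against 643, 717 and 736 CPM with DMSO. Of those with the lowest p, Myl2, Capn3, Fbxl22, Cmya5 and Myoz3 are described. Myl2, the ventricular regulatory light chain, had 105, 56.9 and 82.7 CPM with blebbistatin, against 27.2, 64.3 and 74.1 CPM with DMSO (0.60 ± 0.36). Fbxl22, an F-box protein of the Z disc, had a log2 fold change of 0.29 ± 0.19, and Cmya5, myospryn, one of -0.36 ± 0.29. Capn3 (1.12 ± 0.69) and Myoz3 (-0.68 ± 0.55) were both under 1 CPM in every library. All 5 had overlapping groups. Without DMSO replicate 1 the log2 fold changes were 0.20 for Myl2, 0.22 for Fbxl22, -0.025 for Cmya5, 0.47 for Capn3 and -1.02 for Myoz3. Over all libraries left out in turn they ran from 0.20 to 0.85 for Myl2, 0.15 to 0.47 for Fbxl22, -0.63 to -0.025 for Cmya5, 0.47 to 1.64 for Capn3 and -1.02 to -0.29 for Myoz3. With a pseudocount of 1 CPM Capn3 was at 0.30 and Myoz3 at -0.20.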

How the data were processed

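RNA of 6 libraries was compared, 3 with blebbistatin and 3 with DMSO. The authors deposited CPM values per gene, although the table's name speaks of counts: each column sums to 1000000. Per the submitters' processing notes, which cover RNA and chromatin samples together, the build was rn6 and the tools included edgeR 3.20.9, HISAT2 2.1.0 and StringTie 1.3.4. Their roles, the annotation and whether strand was used are not given in the sources used here.

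Of the values under 2 CPM, 97.4 to 97.7% were whole multiples (within 0.02) of 1 step per library. Because not all were, no count test was run.

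The test was limma 3.58.1 in R 4.3.3 (trend and robust settings, no block, two-sided) on log2 of scaled CPM plus 0.1, a pseudocount that shrinks the fold changes of low genes. Scaling divided CPM by unweighted TMM factors of 0.928 to 1.03 (trimming 0.3 and 0.05). Tested genes reached 0.162 CPM, worth 10 reads at the median depth, in 3 or more libraries. Library values are CPM as deposited, and means are of scaled CPM. The steps were tested on simulated data. The simulated spread of each gene was capped and came from the libraries other than DMSO replicate 1, so it lacks the deviations of that library. Library ranks use scaled values.

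Named genes: all members are described. Library values are given for the 10 with the lowest p, the 5 with the highest CPM, 3 fixed pairs and the turnover genes, and the wider list is described by those with the lowest p, of which 1 is not reported here. Actg1 and the overlapping genes were chosen after their values were seen. Members, lists and tests were chosen with earlier results of these data known. Alternatives covered scaling, filter, pseudocount, robust setting, replicate block and each library left out.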

Additional observations from a re-analysis of the deposited data

How the results depend on the processing

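The count of 0 genes called among the 29 held under all 15 alternatives (limma, adjusted p from 0.593 to 1.00 over them), as did that of 0 among the wider list. The median of the 29 ran from -0.068 to 0.044. With the replicate block 0 of the 29 and 0 of the wider list passed (limma, smallest unadjusted p of the 29 0.164). Libraries sharing a number deviated from their groups with correlations of -0.29, 0.054 and -0.092. The highest of all, 0.38, was between blebbistatin replicate 1 and DMSO replicate 3. Deviations from a group mean sum to 0 within each group, so these correlations cannot decide whether the numbers mark pairs. The block called 2 genes of the whole table, against 3 without it. The planned count test was not run. Other scaling, filters, pseudocounts, the block and the robust setting changed the sign of 1 gene, Myom3, to 0.0058 with library-size scaling and 0.0066 with a pseudocount of 1 CPM. On CPM as deposited, DMSO replicate 1 was lowest for 12 genes and highest for 13. Leaving out each library in turn, 0 to 2 of the 29 had groups that did not overlap (12% to 22.5% of all genes), and 33 of 174 fold changes turned sign, 18 of them without DMSO replicate 1; the cause was not tested. The log2 fold changes that turned ran from -0.042 to 0.31 for Tnnt2, -0.16 to 0.56 for Tnnc1, -0.036 to 0.24 for Actc1, -0.062 to 0.42 for Tpm1, -0.33 to 0.013 for Nebl, -0.71 to 0.59 for Neb, -0.037 to 0.056 for Tmod1, -0.26 to 0.10 for Actn2, -0.095 to 0.36 for Csrp3, -0.040 to 0.088 for Myoz2, -0.32 to 0.044 for Mypn. They ran from -0.26 to 0.10 for Synpo2l, -0.44 to 0.050 for Xirp1, -0.46 to 0.20 for Xirp2, -0.12 to 0.17 for Des, -0.64 to 0.087 for Flnc, -0.36 to 0.051 for Nrap, -0.38 to 0.12 for Myom1, -0.38 to 0.45 for Myom3, -0.045 to 0.26 for Trim63, -0.44 to 0.059 for Fbxo32. Neb and Myom3 were the 2 lowest genes, and the part of counting error in their spread was not tested.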

Other observations

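Among the wider list, relatives of the thin filament and Z disc genes did not pass the limma test. Tpm2, the beta-tropomyosin gene, ranged from 435 to 749 CPM with blebbistatin and 391 to 731 CPM with DMSO, and Tpm4, a cytoskeletal tropomyosin gene, from 891 to 1069 CPM with blebbistatin and 835 to 1054 CPM with DMSO, with log2 fold changes of 0.023 ± 0.25 and -0.011 ± 0.13. Actn1 and Actn4, the alpha-actinins of adhesions and stress fibres, had log2 fold changes of -0.066 ± 0.14 and -0.10 ± 0.14. The chaperone genes Bag3 (0.0052 ± 0.16), Hspb1 (0.029 ± 0.13), Hspb7 (-0.099 ± 0.14) and Unc45b (0.054 ± 0.13) help fold or clear sarcomere proteins. Ankrd1, a titin-binding factor induced by load, had 4942, 4482 and 4434 CPM with blebbistatin, against 3988, 5106 and 5633 CPM with DMSO, with overlapping groups. These genes were picked from the wider list after their values were seen.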
